A study of Mus musculus with 16 samples.

Results

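The 41 genes described here belong to the interferon response and were taken by symbol from a table of 48432 genes, in which all 41 were found. They are 4 interferon receptor chains, 6 transcription factors, 3 sensors of foreign or misplaced nucleic acids, 9 effectors that bind, sense or degrade RNA, 2 genes of the ISG15 modifier system, 9 other antiviral effectors, 4 guanylate-binding proteins and 4 immunity-related GTPases. Type I interferons bind the receptor of IFNAR1 and IFNAR2, whose kinases activate STAT2, which acts with IRF9 on interferon-stimulated response elements (ISRE) in the promoters of target genes. Interferon-γ binds IFNGR1 and IFNGR2 and acts through gamma-activated sites (GAS). Macrophages are known to keep many of these genes at a low level without infection.

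RNA was sequenced from thioglycolate-elicited peritoneal macrophages (PM) of 4 groups of C57BL/6J mice with 4 samples each, 16 in all. LDAH-Tg mice carry a hemizygous *Ldah* transgene (lipid droplet-associated hydrolase) under promoter and enhancer sequences of *Csf1r*, which act in myeloid cells, and were compared with WT controls. This line was made in a B6D2F1 background and later crossed to C57BL/6. LDAH-KO mice carry, in every tissue, an *Ldah* allele in which a cassette replaces part of the coding exons, and were compared with WT controls of their own. In all groups PM were harvested 5 days after 3% thioglycolate and loaded with oxidized LDL (oxLDL) at 50 μg/ml for 48 h, so no group was free of oxLDL and the labels name no interferon treatment. The genotype label of the controls of LDAH-Tg also names ApoE, and which *Apoe* background gave the sequenced PM was not found in the text of the study. The comparisons address how LDAH dose changes the transcriptome of lipid-loaded macrophages.

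The deposited values are the authors' mean of each group in transcripts per 1000000 (TPM). No value of a single mouse was used here, so the means come without an SD, differences between them could not be tested, and sequencing depth cannot be given. A gene was compared when its mean over the 2 groups was at least 1 TPM and neither group was at 0, and its log2 ratio was computed with 0.5 TPM added on both sides, which understates the change of low genes. A factor of 1.5 is used as a size, not as a test. *Ldah* (chromosome 12, 8208107 to 8285759, GRCm38) had a mean of 124 TPM in LDAH-Tg against 28.5 TPM in its controls, and 27.9 TPM in LDAH-KO against 44.5 TPM in its controls. *Apoe* transcripts were present in every group, at 7947 TPM in LDAH-Tg against 8775 TPM in its controls. They were at 10404 TPM in LDAH-KO against 9565 TPM in its controls. What they show of the *Apoe* background was not tested. Of 8 macrophage markers, 7 were at 1 TPM or more in every group. *Lyz2* is listed at 10105 TPM in LDAH-Tg and at 0 in every other group, and was not compared. *Adgre1* had 33.1 TPM in the controls of LDAH-Tg and 22.4 TPM in LDAH-Tg, a log2 ratio of -0.55. It had 146 TPM in the controls of LDAH-KO and 147 TPM in LDAH-KO. Between the WT groups its log2 ratio was -2.13. The summed level of 5 B cell markers did not exceed 1.60 TPM and that of 7 T and NK cell markers did not exceed 0.907 TPM. The sum of 5 neutrophil markers was 107.1 TPM in the controls of LDAH-Tg and 99.9 TPM in LDAH-Tg. It was 63.8 TPM in the controls of LDAH-KO and 68.2 TPM in LDAH-KO. *S100a8* made up most of it, while *S100a9* did not exceed 0.740 TPM and *Ly6g* was at 0 in all groups. The part of neutrophils in the values below was not tested. Markers of plasmacytoid dendritic cells, which are known for high interferon output, summed to 8.11 TPM in the controls of LDAH-Tg, 7.60 TPM in LDAH-Tg, 28.6 TPM in the controls of LDAH-KO and 22.5 TPM in LDAH-KO. *Tcf4*, which other cell types also express, made up most of this sum, at 7.88, 7.38, 28.3 and 22.3 TPM in the same order, while *Siglech* and *Klk1* were at 0 in all groups. The part of these cells in the values below was not tested. The sum of 8 fibroblast and mesothelial markers was 35.2 TPM in the controls of LDAH-KO, 18.1 TPM in LDAH-KO, 24.9 TPM in the controls of LDAH-Tg and 23.5 TPM in LDAH-Tg, and its part in the values below was not tested. In bulk RNA fewer cells of a type and less RNA per cell cannot be told apart.

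The 41 genes spanned a wide range of levels in foam cells, and all were above 0 in every group. On the TPM scale, which is per transcript length, 6 genes averaged 100 TPM or more over the 4 groups. They were the membrane-associated restriction factors *Ifitm3* at 382 TPM and *Bst2* at 211 TPM, the receptor chains *Ifnar2* at 210.1 TPM, *Ifngr1* at 125 TPM and *Ifngr2* at 120.4 TPM, and the transcription factor *Irf5* at 159 TPM. A further 17 genes lay between 10 and 100 TPM and 13 between 1 and 10 TPM. The 5 genes under 1 TPM were *Mx1*, *Mx2* and *Gbp5*, with group means between 0.245 and 1.28 TPM, and *Ifi44* and *Iigp1*, with group means between 0.0255 and 0.105 TPM. *Mx1* is annotated as protein-coding and *Mx2* as a polymorphic pseudogene in the GENCODE annotation of this build. Among the classical type I interferon targets *Ifit1*, *Ifit2* and *Ifit3*, which bind foreign RNA, no group mean exceeded 1.72 TPM, whereas *Oas1a*, a synthetase of the second messenger that activates RNase L, had group means of 36.5 to 47.1 TPM.

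**Figure D1:**
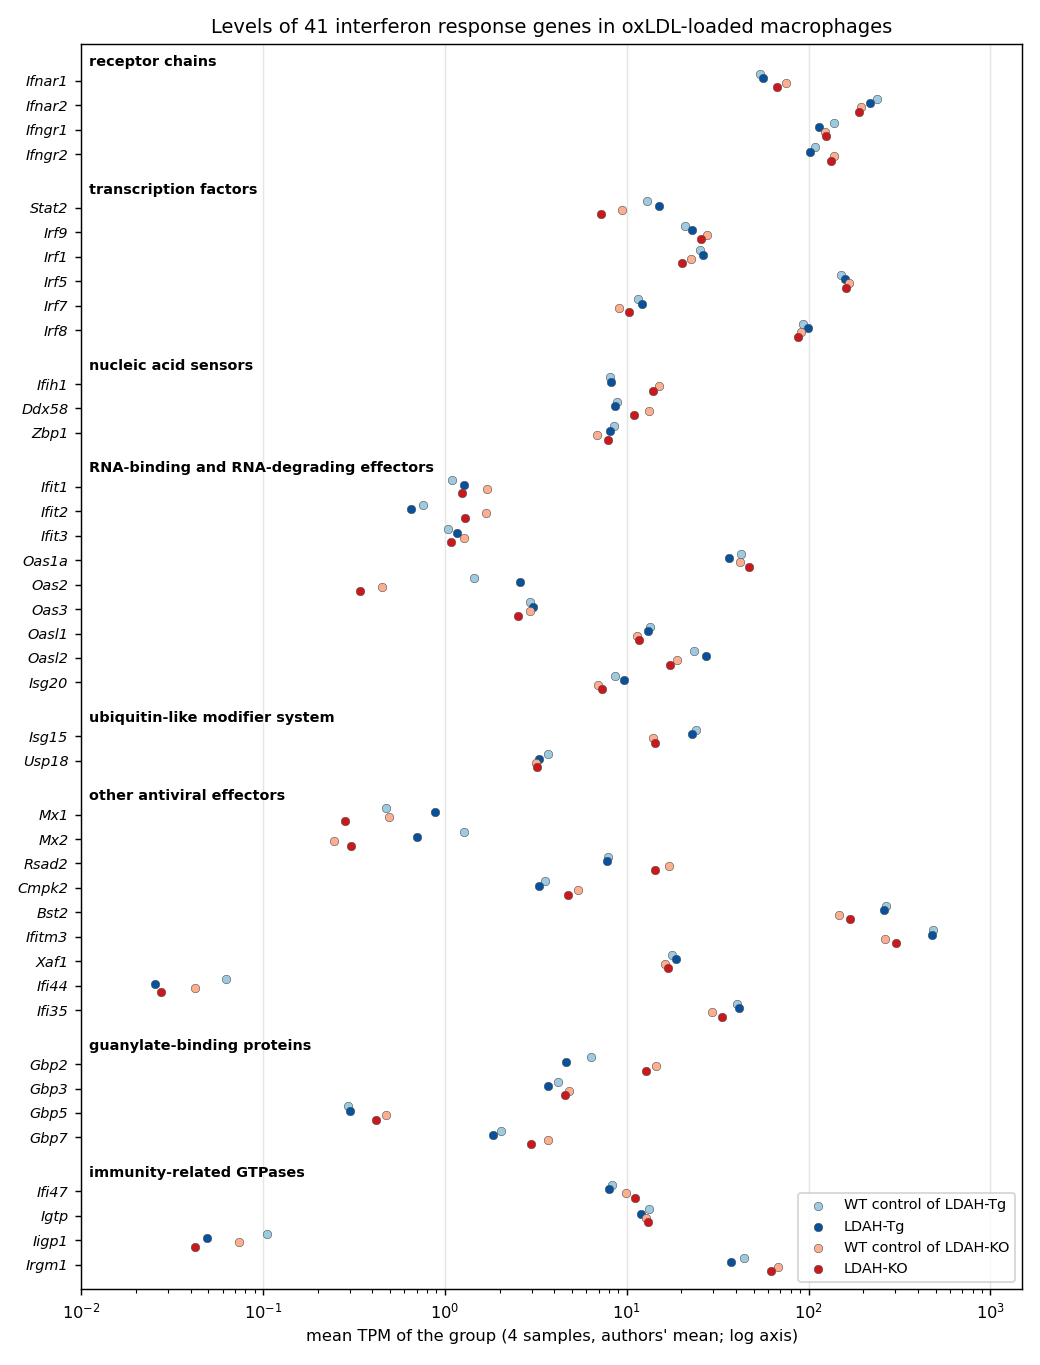
Group mean TPM (log axis) of each of the 41 interferon response genes, ordered by role, with 1 point for each of the 4 groups. Levels run from *Ifitm3* at 482.5 TPM in the controls of LDAH-Tg down to *Ifi44* at 0.0255 TPM in LDAH-Tg, and for most genes the points of a genotype and its own controls lie close together.

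Promoters are shown because a shared ISRE is what links many of these genes to interferon. RefSeq windows on GRCm38.p6, from 250 bases before to 50 bases after a transcription start, were matched for 35 of the 41 genes, and those of *Mx1*, *Mx2*, *Oas2*, *Usp18*, *Zbp1* and *Iigp1* were not among them. The ISRE core was searched on both strands as GAAA, any 2 bases and GAAA, or in reverse TTTC, any 2 bases and TTTC, and overlapping matches were allowed. It was present in 17 of 35 genes (48.6%), against 3.99% of 27025 genes with a window and 3.44% of 32851 windows of the same length. Within the 250 bases before the start it was present in 14 of 35, against 3.46% of all genes and 2.98% of all windows. The GAS letters are TTC, any 3 bases and GAA, which read the same on both strands. They were present in 13 of 35 (37.1%), against 9.55% of all genes and 8.30% of all windows. A match is a string of letters and not a measured binding site. The 150 bases before the start are given 5′ to 3′ on the gene's strand, with ISRE letters in capitals, for 5 ISRE genes that differed between the WT groups in either direction (*Isg15*, *Bst2*, *Rsad2*, *Gbp2* and *Irgm1*) and for *Oas1a* and *Ifit1*, which are compared between the genotypes. They lie at chr4:156200819-156200968 (- strand) for *Isg15*, chr8:71537473-71537622 (- strand) for *Bst2*, chr12:26456453-26456602 (- strand) for *Rsad2*, chr3:142620513-142620662 (+ strand) for *Gbp2*, chr11:48871421-48871570 (- strand) for *Irgm1*, chr5:120907526-120907675 (- strand) for *Oas1a* and chr19:34640739-34640888 (+ strand) for *Ifit1*.
Isg15: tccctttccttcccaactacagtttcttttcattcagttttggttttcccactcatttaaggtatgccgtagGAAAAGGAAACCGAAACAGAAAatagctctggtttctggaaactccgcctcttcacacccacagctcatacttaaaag
Bst2: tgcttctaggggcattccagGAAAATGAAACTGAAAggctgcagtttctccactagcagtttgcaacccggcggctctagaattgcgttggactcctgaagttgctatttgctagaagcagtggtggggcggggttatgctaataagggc
Rsad2: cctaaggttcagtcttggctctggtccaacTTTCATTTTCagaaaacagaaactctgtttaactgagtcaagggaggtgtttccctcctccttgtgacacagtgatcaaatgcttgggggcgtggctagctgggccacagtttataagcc
Gbp2: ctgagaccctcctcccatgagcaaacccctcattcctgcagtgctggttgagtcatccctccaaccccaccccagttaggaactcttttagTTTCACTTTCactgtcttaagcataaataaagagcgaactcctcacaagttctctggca
Irgm1: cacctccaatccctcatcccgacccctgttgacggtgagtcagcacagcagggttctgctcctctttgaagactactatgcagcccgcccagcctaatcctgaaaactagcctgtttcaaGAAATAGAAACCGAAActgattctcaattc
Oas1a: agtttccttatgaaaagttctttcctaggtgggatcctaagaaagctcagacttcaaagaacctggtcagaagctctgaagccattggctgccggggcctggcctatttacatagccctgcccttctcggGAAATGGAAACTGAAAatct
Ifit1: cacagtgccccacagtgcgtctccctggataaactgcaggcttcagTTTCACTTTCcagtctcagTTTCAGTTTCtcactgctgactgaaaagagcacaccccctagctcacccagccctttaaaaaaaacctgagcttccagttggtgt
In *Isg15*, *Bst2*, *Irgm1* and *Oas1a* overlapping matches form an unbroken run of capitals, in *Ifit1* there are separate matches in the reverse orientation, and *Rsad2* and *Gbp2* each have 1 match.

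Few interferon genes were past a factor of 1.5 between LDAH-Tg PM and their WT controls, as over all genes compared. *Ifit2*, *Mx1*, *Mx2*, *Ifi44*, *Gbp5* and *Iigp1* averaged under 1 TPM over these groups and were not compared. Among them *Mx1* had 0.882 TPM in LDAH-Tg against 0.474 TPM, and *Mx2* 0.703 TPM against 1.28 TPM. Without the filter, and with 0.5 TPM added, 1 of 41 genes was past the factor, against 2.10% of 18498 genes. Of the 35 genes compared, 1 was past a factor of 1.5, against 1.95% of 11395 genes (1.26% higher and 0.685% lower). This gene was *Oas2* (chromosome 5, 120730333 to 120749853), a larger relative of *Oas1a*, with means of 2.595 TPM in LDAH-Tg and 1.45 TPM in the controls, a log2 ratio of 0.66. The ratio was 0.55 with 1 TPM added to each mean, below the factor, and *Oas2* shares its locus in the table with the gene model *Gm43068*. In the other mouse line *Oas2* was lower, at 0.450 TPM in the controls of LDAH-KO and 0.341 TPM in LDAH-KO, and was not compared there. The gene with the lowest ratio in LDAH-Tg was *Gbp2* (chromosome 3, 142620602 to 142638008), a GTPase that coats membranes around intracellular pathogens, at 4.63 TPM against 6.39 TPM in the controls, a log2 ratio of -0.43. At any size 16 genes were higher and 19 lower, with a median log2 ratio of -0.03, against 50.5% higher, 49.5% lower and a median of 0.0022 over all genes compared. Past a factor of 5/4 were *Oas2* and *Gbp2*, against 12.6% of all genes, and past a factor of 2 none, against 0.43%.

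The 4 receptor chains stayed within a factor of 5/4 in LDAH-Tg. *Ifngr1* (chromosome 10, 19591949 to 19610229) had 114.5 TPM in LDAH-Tg and 137.7 TPM in its controls, a log2 ratio of -0.26, the largest of the 4. *Ifnar2* had 218 TPM against 238.2 TPM, *Ifngr2* 102 TPM against 108 TPM, and *Ifnar1* 56.4 TPM against 53.8 TPM. *Ifnar1* and *Ifnar2* form the receptor of type I interferon, and *Ifngr1* and *Ifngr2* that of interferon-γ. All 6 transcription factors had a higher mean in LDAH-Tg than in the controls, by log2 ratios of 0.06 to 0.21. This direction was the same after median-ratio scaling, quantile normalization and removal of the length trend. Median-ratio scaling moves ratios little here, since the median log2 ratio over all genes compared was 0.0022. None of these settings adjusts for the share of G and C bases in a transcript (GC content). It was 50.6% to 58.7% for the 6 genes, and its part was not tested. No ratio of the 6 reached a factor of 5/4. *Stat2*, the STAT that is specific to type I and type III interferon, had 14.99 TPM in LDAH-Tg against 12.9 TPM. *Irf9*, its DNA-binding partner, had 22.7 TPM against 20.9 TPM. *Irf7*, which amplifies type I interferon, had 12.2 TPM against 11.6 TPM.

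The remaining factors had log2 ratios of 0.06 to 0.09. *Irf1*, an early target of interferon-γ, had 26.3 TPM in LDAH-Tg against 25.3 TPM in the controls. *Irf5*, which drives inflammatory cytokines in macrophages, had 158 TPM against 151 TPM, and *Irf8*, a lineage factor of myeloid cells, had 99.4 TPM against 93.3 TPM. The table lists 189 genes at the locus that holds *Irf8*, and 14 of the 41 genes share a locus with at least 1 other gene. The 3 guanylate-binding proteins compared and the 3 immunity-related GTPases compared are from families of interferon-γ-induced GTPases. These genes, with a GC content of 44.5% to 49.8%, had lower means in LDAH-Tg under each of these scalings. Besides *Gbp2* they included *Irgm1*, a regulator of the other GTPases of its family, at 37.3 TPM against 44.2 TPM and a log2 ratio of -0.24. *Gbp3*, a relative of *Gbp2*, had 3.71 TPM against 4.22 TPM, a log2 ratio of -0.16.

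The effectors and sensors of LDAH-Tg PM had ratios in both directions. Of 8 RNA-binding and RNA-degrading effectors compared, 6 were higher and 2 lower. *Oasl2*, which modulates RNA sensing, had 27.3 TPM against 23.5 TPM, a log2 ratio of 0.22. *Oas1a* had 36.5 TPM against 42.5 TPM, a log2 ratio of -0.22. *Oas1g*, a near copy beside *Oas1a* that can share its reads, differed in the other direction, with 14.1 TPM in LDAH-Tg against 10.1 TPM in the controls, and the sum of both was 50.6 TPM against 52.6 TPM, a log2 ratio of -0.06. The abundant *Ifitm3* and *Bst2* differed by log2 ratios of -0.01 and -0.03, and the RNA sensor *Ifih1* (MDA5) by 0.02. Of the ISG15 system, *Isg15* itself had a log2 ratio of -0.07, and *Usp18*, which removes ISG15 from proteins and restrains IFNAR2, had -0.15.

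No interferon gene was past a factor of 1.5 in LDAH-KO PM. *Oas2*, *Mx1*, *Mx2*, *Ifi44*, *Gbp5* and *Iigp1* averaged under 1 TPM and were not compared. Of the 35 compared, 0 were past it, against 2.22% of 11289 genes (0.39% higher and 1.83% lower). At any size 14 were higher and 21 lower with a median log2 ratio of -0.06, while all genes compared had a median of -0.08 and 33.4% of them were higher and 66.6% lower. None was past a factor of 2, against 0.558% of all genes. After median-ratio scaling, which takes this shift of all genes away, 18 were higher and 17 lower, with a median of 0.0194. The genes past a factor of 5/4 were *Stat2* (chromosome 10, 128270559 to 128292849), at 7.21 TPM in LDAH-KO against 9.39 TPM in its controls with a log2 ratio of -0.36, and *Ifit1* (chromosome 19, 34640871 to 34650009), at 1.2497 TPM against 1.72 TPM with -0.34. Over all genes compared, 11.9% were past a factor of 5/4.

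Of the 8 genes with the largest ratios in LDAH-KO, 6 had lower and 2 had higher means. *Ifit2* had 1.29 TPM against 1.68 TPM, a log2 ratio of -0.28. The RNA sensor *Ddx58* (RIG-I) had 11.0 TPM against 13.3 TPM, a log2 ratio of -0.27. *Gbp7* had 3.00 TPM against 3.69 TPM, a log2 ratio of -0.26. The last of these, *Rsad2*, which encodes the radical enzyme viperin, had 14.2 TPM against 17.1 TPM, a log2 ratio of -0.25. The membrane-associated factors had the highest ratios, *Ifitm3* with 303 TPM against 263 TPM (0.20) and *Bst2* with 169.5 TPM against 147.4 TPM (0.20). Among genes with larger ratios in LDAH-Tg, *Gbp2* and *Irgm1* were nearer to their controls here and *Oasl2* and *Oas1a* differed in the other direction. *Oasl2* had 17.2 TPM in LDAH-KO against 19.0 TPM, *Oas1a* 47.1 TPM against 42.01 TPM, *Gbp2* 12.8 TPM against 14.5 TPM and *Irgm1* 62.5 TPM against 68.1 TPM. In turn, in the transgenic line *Ifit1* had 1.27 TPM in LDAH-Tg against 1.10 TPM, *Ddx58* 8.61 TPM against 8.86 TPM and *Gbp7* 1.85 TPM against 2.04 TPM.

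In LDAH-KO PM the receptor chains again stayed close to their controls. *Ifnar1* (chromosome 16, 91485238 to 91507441) had 67.2 TPM against 74.8 TPM, *Ifnar2* 190.1 TPM against 194 TPM, *Ifngr1* 125 TPM against 124 TPM and *Ifngr2* 133 TPM against 139 TPM. The direction of *Ifnar2* and *Ifngr2* turned after median-ratio scaling, and that of *Ifngr2* also with the length trend removed. Of the 6 transcription factors 5 had lower means, but the direction of *Irf5* and *Irf8* turned after median-ratio scaling, which left 3 higher and 3 lower, and that of *Irf8* turned after quantile normalization and with the length trend removed. *Irf1* had 20.1 TPM against 22.7 TPM, *Irf9* 25.5 TPM against 27.5 TPM, *Irf5* 161 TPM against 166 TPM and *Irf8* 87.7 TPM against 90.3 TPM. *Irf7* was the factor with a higher mean, at 10.2 TPM against 9.07 TPM, a log2 ratio of 0.17. The guanylate-binding proteins compared were lower in 3 of 3, of which *Gbp3*, at 4.55 TPM against 4.82 TPM, turned after quantile normalization. These counts of lower means stand beside 66.6% lower over all genes compared in LDAH-KO.

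**Figure D2:**
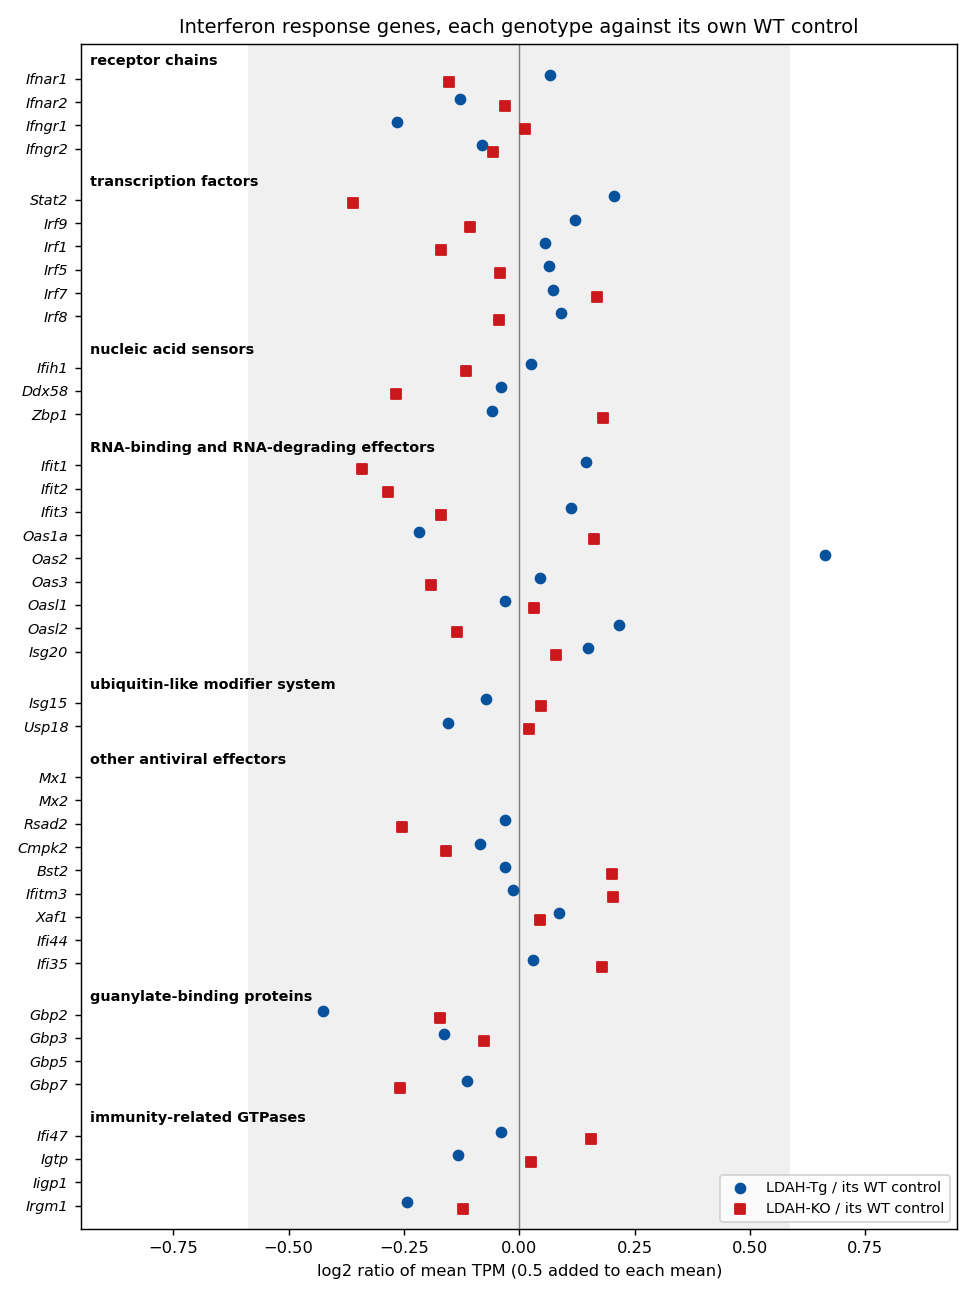
Log2 ratio of mean TPM (x axis) of each interferon gene in LDAH-Tg (circles) and in LDAH-KO (squares), each against its own WT controls, with genes in rows by role and the range within a factor of 1.5 in grey. *Oas2* in LDAH-Tg, at 0.66, is the only point outside the grey range, and genes without a point were not compared.

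The genes not yet given by value are described by the range of their 4 group means. *Zbp1*, a sensor of Z-form nucleic acids, lay between 6.88 and 8.48 TPM. *Usp18* lay between 3.15 and 3.70 TPM, *Igtp* between 12.04 and 13.2 TPM and *Ifi47* between 8.04 and 11.1 TPM. Of the RNA-directed effectors, *Ifit3* lay between 1.05 and 1.27 TPM, *Oas3* between 2.51 and 3.06 TPM, *Oasl1* between 11.4 and 13.4 TPM and the exonuclease gene *Isg20* between 6.92 and 9.63 TPM. *Xaf1*, a proapoptotic interferon target, lay between 16.3 and 18.8 TPM, *Ifi35* between 29.3 and 41.5 TPM and *Cmpk2*, a mitochondrial nucleotide kinase gene beside *Rsad2*, between 3.32 and 5.40 TPM. The highest mean of *Cmpk2* and *Ifi47* was in a group of the LDAH-KO line and that of *Ifi35* in a group of the LDAH-Tg line.

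The 34 genes compared in both genotypes were spread over all combinations of directions. Of these, 11 (32.4%) had a higher mean with the transgene and a lower mean in the knockout, 10 (29.4%) had the opposite pattern, 9 (26.5%) were lower in both and 4 (11.8%) higher in both. Over all 10858 genes compared in both, these shares were 32.3%, 17.1%, 33.9% and 16.7%. The first group held *Stat2*, *Irf9*, *Irf1*, *Irf5* and *Irf8* with *Ifnar1*, *Ifih1*, *Ifit1*, *Ifit3*, *Oas3* and *Oasl2*. The opposite group held *Ifngr1*, *Zbp1*, *Usp18*, *Isg15*, *Oasl1*, *Oas1a*, *Bst2*, *Ifitm3*, *Igtp* and *Ifi47*. *Cmpk2*, *Rsad2*, *Ifngr2*, *Ifnar2*, *Gbp2*, *Gbp3*, *Gbp7*, *Ddx58* and *Irgm1* were lower in both, and *Ifi35*, *Irf7*, *Isg20* and *Xaf1* were higher in both. These are directions of any size, and of these 34 genes only *Gbp2* in LDAH-Tg and *Stat2* and *Ifit1* in LDAH-KO were past a factor of 5/4. They also carry the shift of all genes in LDAH-KO. After median-ratio scaling *Irf5* and *Irf8* were higher in both, and *Ifnar2* and *Ifngr2* were lower in LDAH-Tg and higher in LDAH-KO.

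The size of the ratio in LDAH-KO ran with transcript length. Across the 35 genes, which share the same libraries, the log2 ratio in LDAH-KO had a Pearson correlation of -0.61 and a Spearman correlation of -0.67 with the log2 of the median length of a gene's coding transcripts. Over all 10436 protein-coding genes compared the Pearson correlation was -0.39. All 7 interferon genes with transcripts of 3000 bases or more had lower means in LDAH-KO, with a median log2 ratio of -0.25, and 8 of 11 under 1500 bases had higher means, with a median of 0.05. Among all protein-coding genes 295 of 3162 long ones and 1895 of 3511 short ones were higher. The long genes were *Stat2*, *Ifih1*, *Ddx58*, *Rsad2*, *Cmpk2*, *Gbp7* and *Ifngr2*. With the median ratio of protein-coding genes of like length taken away, the log2 ratio of *Stat2* was -0.17 in place of -0.36, and 16 interferon genes were higher and 19 lower. In LDAH-Tg the Pearson correlation over the 35 genes was 0.06. With GC content in place of length, it was 0.25 in LDAH-Tg over the interferon genes and 0.34 over all protein-coding genes. The same correlations were 0.47 and 0.14 in LDAH-KO, and 0.68 and 0.36 between the WT groups. No ratio was adjusted for GC content, and its part was not tested.

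**Figure D3:**
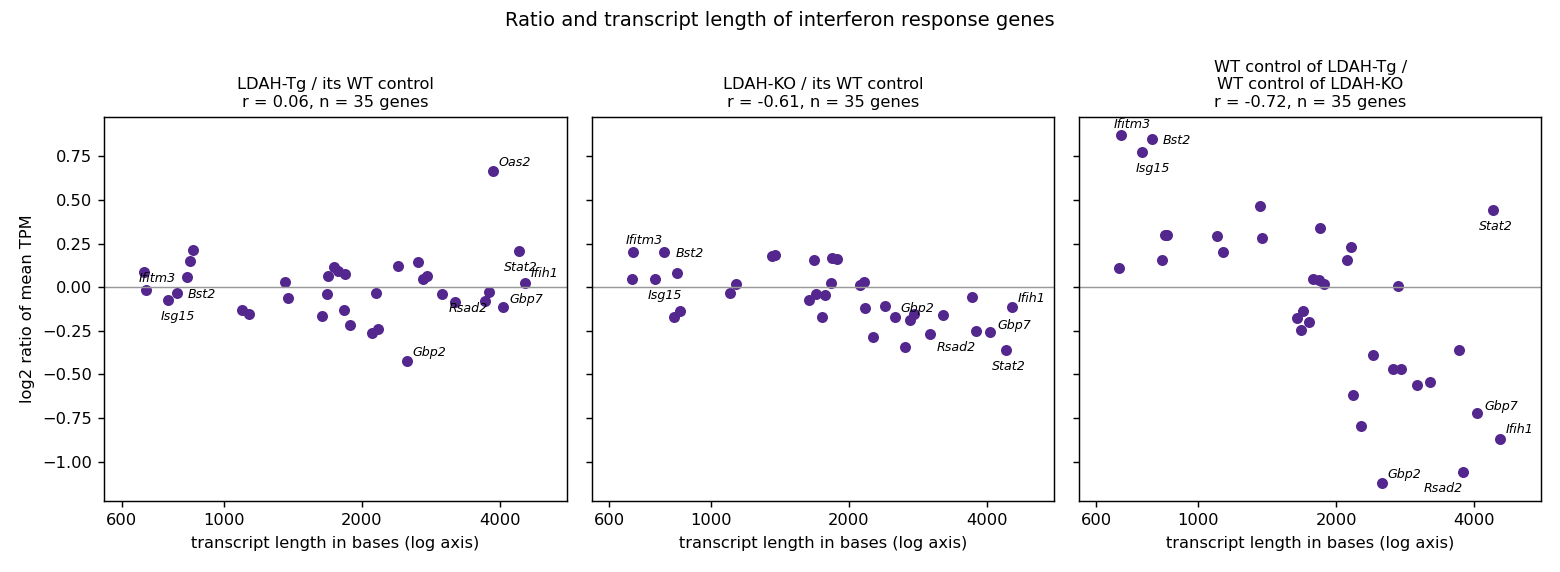
Log2 ratio of mean TPM (y axis) of the interferon genes against transcript length in bases (x axis, log scale) in each of the 3 comparisons, with 1 point per gene and 35 genes a panel. Ratios fall with length in LDAH-KO (r of -0.61) and between the WT groups (r of -0.72), and not in LDAH-Tg (r of 0.06).

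More interferon genes were past a factor of 1.5 between the WT controls of both lines than between either genotype and its controls. The same held over all genes compared. These controls carry no transgene or knockout allele of *Ldah*, but its level differed between them. *Ldah* had 28.5 TPM in the controls of LDAH-Tg against 44.5 TPM in the controls of LDAH-KO, a log2 ratio of -0.63. The controls of LDAH-Tg and of LDAH-KO also enter the genotype comparisons above. Mouse line, processing batch and background cannot be told apart between these groups. Of 35 interferon genes compared, 9 (25.7%) were past a factor of 1.5, against 38.6% of 11404 genes (12.1% higher and 26.5% lower in the controls of LDAH-Tg). Past a factor of 2 were 2 of them, *Gbp2* and *Rsad2*, against 15% of all genes, and past a factor of 5/4 there were 18, against 63.3%. At any size 19 were higher and 16 lower, against 39.3% and 60.7%. *Mx1*, *Mx2*, *Oas2*, *Ifi44*, *Gbp5* and *Iigp1* averaged under 1 TPM over these groups and were not compared. Of these, *Mx2* had 1.28 TPM in the controls of LDAH-Tg against 0.245 TPM, and *Oas2* 1.45 TPM against 0.450 TPM. *Mx1* had 0.474 TPM against 0.491 TPM and *Gbp5* 0.293 TPM against 0.477 TPM. *Ifi44* and *Iigp1* did not exceed 0.105 TPM. The 3 compared genes past a factor of 1.5 and higher in the controls of LDAH-Tg than in the controls of LDAH-KO encode small proteins. *Ifitm3* (chromosome 7, 141009586 to 141010770) had 482.5 TPM against 263.3 TPM, a log2 ratio of 0.87. *Bst2* (tetherin, chromosome 8, 71534255 to 71537456) had 266 TPM against 147 TPM, a log2 ratio of 0.85. *Isg15* (chromosome 4, 156199424 to 156200818), the ubiquitin-like modifier, had 24.0 TPM against 13.9 TPM, a log2 ratio of 0.77. Each genotype lay near its own controls in these genes. *Ifitm3* had 478 TPM in LDAH-Tg and 303 TPM in LDAH-KO, *Bst2* 260.1 TPM and 169.5 TPM, and *Isg15* 22.8 TPM and 14.4 TPM.

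The 6 compared genes past the factor and lower in the controls of LDAH-Tg were GTPases, an RNA sensor, an RNA-binding protein and an antiviral enzyme. *Gbp2* had 6.39 TPM against 14.5 TPM in the controls of LDAH-KO, a log2 ratio of -1.12. *Rsad2* (chromosome 12, 26442746 to 26456452) had 7.93 TPM against 17.1 TPM, a log2 ratio of -1.06. *Ifih1* (chromosome 2, 62595798 to 62646255) had 8.07 TPM against 15.1 TPM, a log2 ratio of -0.87. In the latter genes the genotype groups stayed near their own controls, with *Rsad2* at 7.75 TPM in LDAH-Tg and 14.2 TPM in LDAH-KO and *Ifih1* at 8.22 TPM and 13.9 TPM. *Ifit2* had 0.757 TPM against 1.68 TPM (-0.80) and 0.650 TPM in LDAH-Tg. It was under 1 TPM in the controls of LDAH-Tg and reached the filter through the controls of LDAH-KO, where it was higher. *Gbp7* had 2.04 TPM against 3.69 TPM (-0.72). *Irgm1* (chromosome 11, 48861968 to 48871683) had 44.2 TPM against 68.1 TPM (-0.62). *Stat2* was higher in the controls of LDAH-Tg, at 12.9 TPM against 9.39 TPM with a log2 ratio of 0.44, and its ratio was 0.89, past the factor, with the length trend removed. Over all genes compared the median log2 ratio between the WT groups was -0.17. Median-ratio scaling, which takes this away, gave 5 genes past the factor higher and 4 lower, with *Stat2* and *Ifi35* added to the higher genes and *Gbp7* and *Irgm1* no longer past it.

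**Figure D4:**
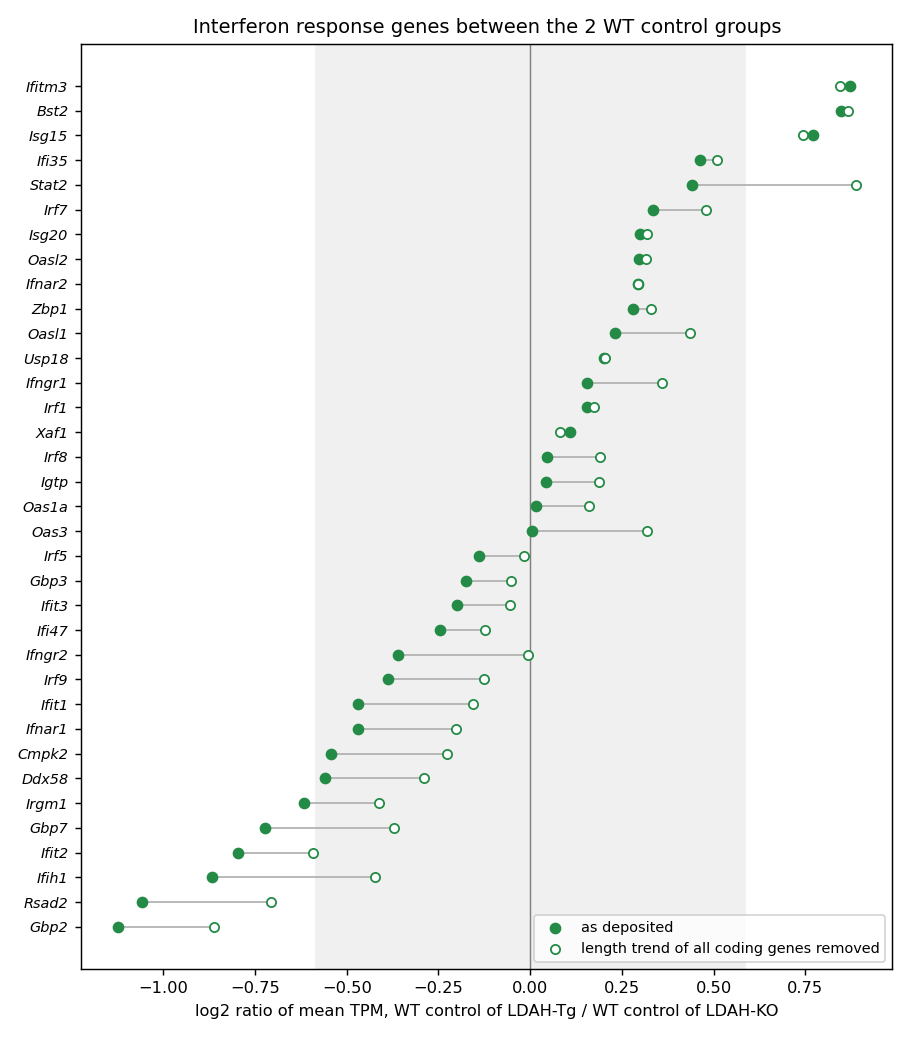
Log2 ratio of mean TPM between the WT controls of LDAH-Tg and those of LDAH-KO (x axis) for the 35 interferon genes compared, as deposited (filled) and with the length trend of all coding genes removed (open), with the range within a factor of 1.5 in grey. *Ifitm3*, *Bst2* and *Isg15* lie to the right of the grey range by both values, and of the 6 genes to its left *Gbp2*, *Rsad2* and *Ifit2* stay there with the trend removed.

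ISRE letters were found in genes of both directions. Of the 16 compared genes with ISRE letters in the promoter window, 3 were past the factor higher and 5 lower in the controls of LDAH-Tg, against 12.1% and 26.5% of all genes compared, and the promoters of *Isg15*, *Bst2*, *Rsad2*, *Gbp2* and *Irgm1* shown above belong to both directions. Of 17 without them 0 were past it higher and 1 lower, which was *Ifit2*, under 1 TPM in the controls of LDAH-Tg. Length again ran with the ratio, with a Pearson correlation of -0.72 over the 35 interferon genes and -0.20 over all 10508 protein-coding genes. All 11 interferon genes under 1500 bases had higher means in the controls of LDAH-Tg, and 1 of 7 of 3000 bases or more. Over all protein-coding genes 1761 of 3540 short ones and 817 of 3170 long ones were higher. With the length trend removed 4 genes were past the factor higher and 3 lower, and of those named above *Ifih1*, *Gbp7* and *Irgm1* were no longer past it. The GTPases *Gbp2*, *Gbp3* and *Gbp7* were lower in the controls of LDAH-Tg under each scaling tried.

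The other genes of the pathway were read from a list of 74, all in the table. Of its 10 interferon genes, the ligands of the pathway, 9 were at 0 in all groups, and *Ifnb1* had 0.0274 TPM in LDAH-KO and 0 in the others. Among 50 genes compared in LDAH-Tg, 0 were past a factor of 1.5, against 1.95% of all genes, with 25 higher and 25 lower. In LDAH-KO 1 of 50 was past it, against 2.22% of all genes. In that comparison 9 were higher and 41 lower with a median log2 ratio of -0.16, against 33.4% higher, 66.6% lower and a median of -0.08 over all genes, and there were 14 higher and 36 lower after median-ratio scaling. The gene past the factor was *Ccl5*, a chemokine for T cells and monocytes, at 0.928 TPM in LDAH-KO against 1.94 TPM, a log2 ratio of -0.77. *Ccl5* was under 1 TPM in LDAH-KO and reached the filter through the controls, where it was higher. The kinases of the receptors were present in every group. In the order controls of LDAH-Tg, LDAH-Tg, controls of LDAH-KO and LDAH-KO, means were 68.8, 59.7, 158 and 135 TPM for *Jak1*, 11.6, 10.6, 19.5 and 16.8 TPM for *Jak2* and 18.3, 21.01, 20.6 and 19.1 TPM for *Tyk2*. *Stat3*, a STAT that many cytokines use, had 27.0, 27.1, 44.2 and 37.1 TPM in the same order.

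The named genes of this list with the largest ratios in LDAH-Tg were led by *Slfn5*, an interferon-induced regulator of growth, at 9.46 TPM against 13.3 TPM in the controls. It had 103 TPM in the controls of LDAH-KO and 80.0 TPM in LDAH-KO, a wider gap between the control groups than between a genotype and its controls. *Oas1g* had 3.66 TPM in the controls of LDAH-KO and 4.38 TPM in LDAH-KO, against 10.1 TPM in the controls of LDAH-Tg. *Irf3*, the factor that starts *Ifnb1* transcription after sensing, had 99.01 TPM in LDAH-Tg against 80.8 TPM, and *Ikbke*, a kinase of IRF3, had 92.4 TPM against 71.2 TPM. *Trim30a*, a ubiquitin ligase that restrains Toll-like receptor signalling, had 19.0 TPM against 15.5 TPM and *Lgals3bp*, a secreted glycoprotein, 183 TPM against 219.6 TPM. In LDAH-KO the named genes were lower and had transcripts of 3000 bases or more, and were the ubiquitin ligase *Rnf213* (7.77 TPM against 10.6 TPM), the ADP-ribosyltransferase *Parp14* (13.5 TPM against 17.5 TPM), the phosphatase gene *Ptpn11* (39.8 TPM against 49.9 TPM) and the RNA-activated kinase *Eif2ak2* (18.7 TPM against 23.4 TPM) besides *Slfn5*. Of the 22 genes of this list with transcripts of that length, 0 had a higher mean in LDAH-KO, where 295 of 3162 protein-coding genes of that length did. Between the WT groups 8 of 51 were past the factor higher and 15 lower in the controls of LDAH-Tg, against 12.1% and 26.5% of all genes, and 10 higher and 9 lower after median-ratio scaling.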

How the data were processed

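Poly(A)-enriched RNA from 16 samples was sequenced and aligned by the authors to GRCm38 (mm10) with STAR 2.4.2a after trimming with Trimmomatic. Their processing notes also list Cuffdiff 2.2.1, HTSeq and, for demultiplexing, bcl2fastq 2.17.1.14. The tool that made the TPM values and the annotation release are not given in the sources used here. The deposited TPM values are group means made by the authors, in 4 columns that each sum to 1000000 over 48432 genes, and 1 further line that holds this total was left out. The planned tests across samples could not be made on means, and the depth of each sample is unknown.

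Log2 ratios were taken after adding 0.5 TPM, for genes with a mean of at least 1 TPM over both groups and neither at 0. For a symbol on more than 1 gene (116 further entries) the entry of highest mean was used for the lists, and all entries for the background. Of the identifiers 99.2% are in GENCODE M21, which gave coordinates, lengths and GC content, and promoters came from RefSeq (GRCm38.p6). The ratio and scaling steps were checked on simulated means in which genes of at least 5 TPM were changed by a factor of 2. That check covers the computation only, since it held no replicates and no length trend and changed no low genes. The members and lists were chosen with earlier results of these data known. Means are printed for the receptor chains, the transcription factors, genes past a factor of 1.5 in a genotype comparison and the 8 largest ratios of each comparison, and of the other pathway genes for the ligands, receptor kinases, *Stat3* and up to 6 largest ratios per genotype comparison at a mean of at least 5 TPM, of which 1 gene is not reported here. *Ccl5* and the genes given by range were named after their values were seen, as were the length limits of 1500 and 3000 bases. Pseudocounts, filters, factors, median-ratio scaling and quantile normalization were tried as alternatives, and removal of the length trend (the median ratio of protein-coding genes of like length), the longest transcript and leaving out genes that share a locus were added after the data were seen. Computation used numpy 2.4.6 and pandas 2.3.3, and plots matplotlib 3.10.9, under Python 3.11.15.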

Additional observations from a re-analysis of the deposited data

How the results depend on the processing

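No paired analysis was possible because the table holds group means alone, and for the same reason the values without each replicate could not be computed. In LDAH-Tg the count of interferon genes past the factor, 1 as given, was 0 with 1 TPM added, at a mean of at least 5 TPM and without the genes that share their locus, since each of these leaves out *Oas2* or lowers its ratio. It was 2 at a factor of 5/4 and 0 at a factor of 2. In LDAH-KO the count was 2 at a factor of 5/4 and 0 under every other alternative run. Between the WT groups it was 18 at a factor of 5/4 and 2 at a factor of 2, against 9. For the other pathway genes the count in LDAH-Tg was 1 without a filter, against 0, and that in LDAH-KO was 0 at a mean of at least 5 TPM, against 1, which leaves out *Ccl5*. Of the values of single named genes under the alternatives, 798 moved by less than 0.1 on the log2 scale and 134 by more, and no ratio past the factor changed sign. The length relation in LDAH-KO was -0.72 over the interferon genes and -0.55 over all protein-coding genes with the longest transcript, and between the WT groups -0.68 and -0.32. Without replicates no value here shows how far a mean lies from that of other mice.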
